A study of Schizosaccharomyces pombe with 31 samples.

Results

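A set of 116 coding genes of the fission yeast *Schizosaccharomyces pombe* was more abundant in cells without Endosulfine (*igo1*∆) and in cells without Greatwall (*ppk18*∆ *cek1*∆) than in wild type cells after 4 h of nitrogen starvation. The genes were chosen by their normalised read counts at 4 h, which are read counts per gene divided by a size factor of each library. Among 4879 coding identifiers with a mean of at least 50 over the 27 libraries of the starvation experiment, a gene was taken when its group mean plus 10 was at least 3 times the wild type value in both deletion strains. Identifiers starting with SPAC977 or SPAC212, which lie near an end of chromosome I, were not considered. Genes that rose 2.5-fold or more in wild type cells between 1 h and 4 h were left out, as were genes that rose at least 2-fold in wild type cells by 1 h and fell to 0.5 or less of that by 4 h. Both ratios reached 3 in 138 identifiers (2.83%) before these clauses were applied. Of the 116 genes, 113 are annotated as protein-coding and 2 as pseudogenes (SPBC18E5.15 and SPBPB21E7.08), and SPBC460.02c was not matched in the annotation. Because the 4 h ratios chose the genes, the 4 h values are given as a description and without a test.

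The *igo1*∆ cells (h- igo1::kanMX6), the *ppk18*∆ *cek1*∆ cells (h- ppk18::KanMX6 cek1::natMX6) and the wild type cells (h- 972) were sampled in minimal medium (MM) and after 1 h and 4 h in the same medium without nitrogen (MM-N), with 3 samples per group. In a separate experiment, 2 samples of cells overexpressing *ppk18* (h- P3-nmt1-GFP-ppk18, a strong promoter that is on when thiamine is absent) were compared with 2 samples of wild type cells (h- 972), all grown for 20 h in MM without thiamine. The labels name the samples of a group as biological replicates, and p-values measure the spread between them. In these bulk samples, fewer cells expressing a gene and less RNA per cell cannot be told apart.

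The libraries of the starvation experiment held 14921656 to 22464897 reads on genes, and those of the overexpression experiment 14612909 to 18846318. In *ppk18*∆ *cek1*∆ cells, *ppk18* had 142 to 246 normalised counts and *cek1* 23.9 to 165, against 3776 to 5746 and 2884 to 3811 in wild type cells. With the *nmt1* promoter on, *ppk18* had 344147 and 374000 normalised counts, against 4967 and 4969 in wild type cells. The *igo1* counts did not check the label in the same way. They were 1507 to 2577 in *igo1*∆ cells and 2598 to 3317 in wild type cells, only 420 of the 1181 annotated exon bases of *igo1* are coding, and the extent of the deletion is not given in the sources used here.

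Greatwall kinases (Ppk18 and Cek1) phosphorylate Endosulfine (Igo1), which then inhibits the phosphatase PP2A/B55. The switch is off while TORC1 is active and is turned on when nitrogen becomes poor, and cells without it fail to arrest properly in G1. Cells short of amino acids also use a separate system, in which the kinase Gcn2 senses uncharged tRNA and the GATA factor Fil1 raises the genes of amino acid synthesis. Many of the 116 genes encode enzymes that build amino acids, carriers that take metabolites into mitochondria, or transporters for vitamins and nitrogen compounds.

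The group as a whole moved apart from wild type in both directions. Relative to wild type cells in MM, the median member was at 0.56 (log2) after 1 h and 1.64 after 4 h in *igo1*∆ cells, at 0.47 and 1.42 in *ppk18*∆ *cek1*∆ cells, and at -0.25 and -0.89 in wild type cells. The median of the 4879 identifiers stayed within 0.07 of 0 in every one of these groups. At 4 h, 75 of the 116 genes (64.7%) were at least 2 times their own MM level in *igo1*∆ cells and 66 (56.9%) in *ppk18*∆ *cek1*∆ cells, compared with 12.9% and 13% of all identifiers. In wild type cells 53 members (45.7%) were at 0.5 of their MM level or less, compared with 14.7% of all identifiers. The rule took genes with high mutant over wild type values at 4 h, so these 4 h gaps to all identifiers follow at least in part from the choice. The name "over-induced" therefore describes part of the set only, and other members kept about their MM level in the mutants while wild type cells lost them.

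**Figure D1:**
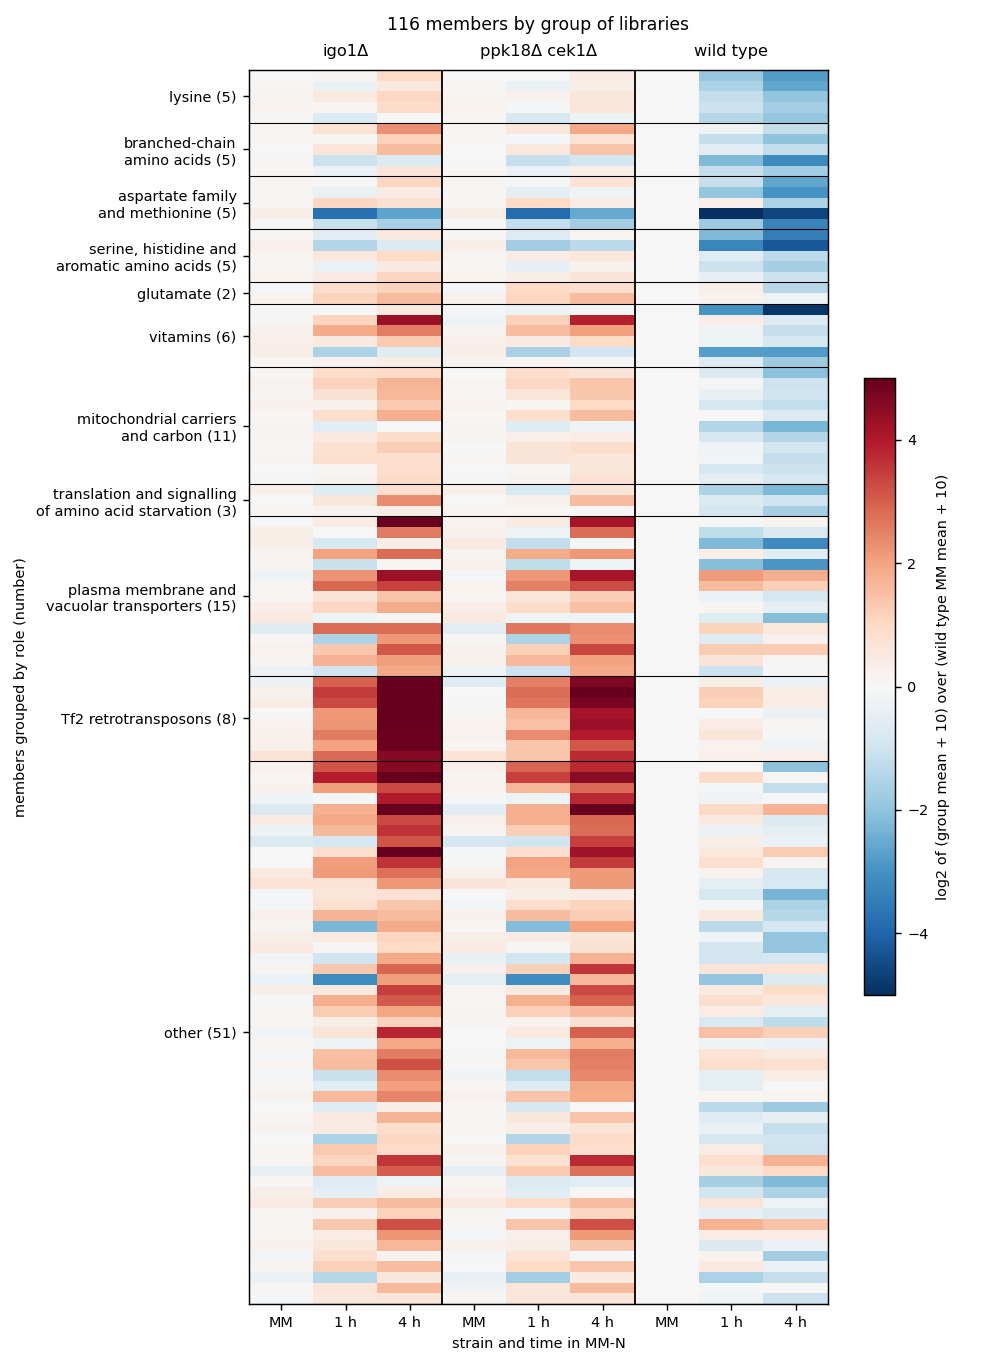
Each row is 1 of the 116 members and each column a group mean of 3 samples (*igo1*∆, *ppk18*∆ *cek1*∆ and wild type, each in MM, 1 h and 4 h), coloured by log2 of the group mean plus 10 over that of wild type cells in MM. The mutant columns turn to higher values at 4 h (medians 1.64 and 1.42) where the wild type column turns to lower ones (median -0.89). The rule chose the members by these 4 h values.

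Enzymes of amino acid synthesis made up 22 of the members, and they are 22 of 68 such enzymes in a list of the whole pathway (32.4%). Of all identifiers, 2.38% were members. The list was chosen with earlier results of these data known, so the share is a description. At 4 h the median of these 22 was 0.83 (log2, relative to wild type cells in MM) in *igo1*∆ cells, 0.37 in *ppk18*∆ *cek1*∆ cells and -1.94 in wild type cells. At the median, the gap thus lay mostly in a level below that of MM in wild type cells, which the mutants did not show. Single enzymes differed, and *met17*, *met26*, *ser3*, *ilv5* and *lys2* were below their MM level in both mutants too. The gap was not restricted to the members: the other 46 enzymes had a median ratio of 2.18 in *igo1*∆ and 1.94 in *ppk18*∆ *cek1*∆ cells over wild type cells at 4 h, and 23 of them were at least 2-fold higher in both. In wild type cells these 46 were at a median of 0.564 of their MM level. Some went the other way, such as *lys7* at 0.468 and 0.532 times wild type.

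Leu3, the enzyme that commits carbon to leucine, was among the most abundant members. Its normalised counts at 4 h were 94700, 100645 and 101626 in *igo1*∆ cells, 77952, 79470 and 72416 in *ppk18*∆ *cek1*∆ cells, and 8340, 9271 and 8956 in wild type cells. In MM the same gene had 22103, 22358 and 21148 counts in *igo1*∆ cells, against 19241, 20211 and 21277 in wild type cells. The mutants therefore stood well above their MM level, whereas the wild type samples stood below theirs. The other leucine and branched-chain members had smaller ratios, 6.95 and 6.26 for *leu2*, 9.06 and 6.73 for the aminotransferase gene *eca39*, 5.75 and 4.85 for *ilv5* and 4.87 and 3.92 for *ilv3* (*igo1*∆ first, each over wild type).

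In the lysine pathway, *lys4*, which encodes homocitrate synthase at its first step, had 29718, 33308 and 32282 counts at 4 h in *igo1*∆ cells, 22735, 21176 and 19825 in *ppk18*∆ *cek1*∆ cells, and 2293, 2313 and 2306 in wild type cells. The 3 groups did not overlap, though the rule chose the gene by its mutant and wild type values at 4 h. The ratios of the other lysine members ran from 8.95 and 7.48 for the homoisocitrate dehydrogenase gene *lys12* down to 3.71 and 3.14 for the homoaconitate hydratase gene *lys2*. Outside the set, *lys9* was at 3.251 and 2.655 and *lys7* at 0.468 and 0.532 times wild type. In the aspartate family, the aspartate kinase gene *hom3* reached 12.9 and 10.2 times wild type and the next step, *hom2*, 10.4 and 6.66 times. Asparagine synthetase (*asn1*) reached 5.07 and 3.78 times.

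Met17, the homocysteine synthase that takes up sulfide, moved differently from leucine and lysine genes. Its counts in *igo1*∆ cells were 17324, 18688 and 17766 in MM, 1093, 1136 and 1039 after 1 h and 2534, 2378 and 2112 after 4 h. In wild type cells they were 13805, 15655 and 14094 in MM, 274, 291 and 304 after 1 h and 523, 604 and 668 after 4 h. The gene was thus lost in both strains and less so in the mutant. The methionine synthase gene *met26* was the member with the highest mean count and stood at the edge of the set. Its counts at 4 h were 44854, 42495 and 44842 in *igo1*∆ cells and 13029, 13735 and 13580 in wild type cells, a ratio of 3.28, and its ratio in *ppk18*∆ *cek1*∆ cells was 3.02. Just inside the threshold, the lower of both ratios was 3.02 for *met26* and 3.06 for *meu10*. Just outside it were *mug45* at 2.999, *ppk8* at 2.98 and SPCC794.03 at 2.97.

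Both enzymes that form glutamate were in the set. The glutamine synthetase gene *gln1* was not, at 0.694 and 0.842 times wild type at 4 h. The NADP-specific glutamate dehydrogenase gene *gdh1* had 50972, 55519 and 52226 counts at 4 h in *igo1*∆ cells, 44688, 47230 and 42066 in *ppk18*∆ *cek1*∆ cells and 8712, 9922 and 9224 in wild type cells. The glutamate synthase gene *glt1* had 127111, 117255 and 123660 counts in *igo1*∆ cells, 111723, 111390 and 137208 in *ppk18*∆ *cek1*∆ cells and 34918, 32644 and 33032 in wild type cells. In each gene the mutant samples lay above every wild type sample at 4 h, the time whose values chose the genes. The serine gene *ser3* (11.6 and 7.69 times wild type), SPAP8A3.07c, which encodes the first enzyme of the aromatic pathway (15.1 and 11.4 times), *his4* (5.07 and 3.73 times), *ser1* (4.47 and 3.33 times) and *trp1* (4.34 and 3.62 times) completed the pathway members.

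**Figure D2:**
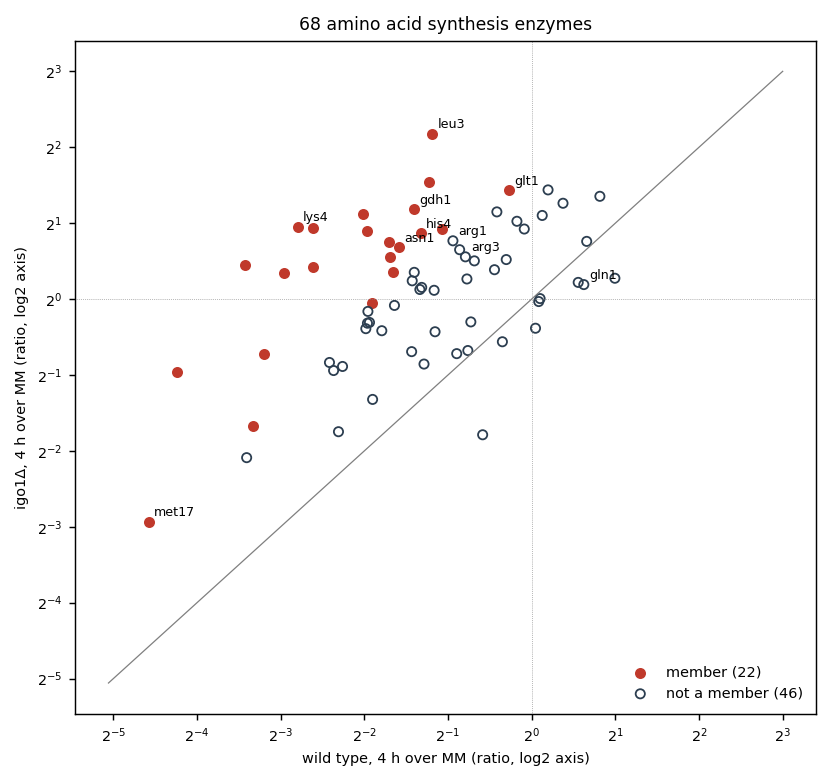
Each point is 1 of 68 enzymes of amino acid synthesis, placed by its 4 h level over MM in wild type cells (horizontal axis, log2) and in *igo1*∆ cells (vertical axis, log2). The 22 members (filled) lie far above the diagonal of equal change, with a median of 0.26 of the MM level in wild type cells and 1.64 times it in *igo1*∆ cells, and most of the 46 others (open) lie above it too.

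The promoters of these genes were read from the RefSeq sequence of ASM294v3, as a window of the 300 bases before the annotated gene start. Windows of 105 members were searched, with the 8 Tf2 copies left out on purpose. The 4859 windows of all identifiers still include Tf2 copies. Most of the member windows overlap another annotated gene. The hexamer CAGATC, on either strand, was in the window of 17 members (16.2%) and of 6 of the 22 amino acid enzymes (27.3%), compared with 5.23% of all windows. The hexamer CGGAAA was in 25 windows (23.8%) and in those of 5 of the 22 enzymes (22.7%), compared with 8.97% of all. Both hexamers were picked after all hexamers had been counted in the members, and their shares are therefore a description. The site of GATA factors, GATAAG, was in 18 windows (17.1%) and in those of 2 of the 22 enzymes (9.1%), compared with 11.9% of all. Stretches of 160 bases that hold these letters are shown for 5 members, and each stretch as printed overlaps no annotated gene. They are printed to show the spacing and the strand of the matches, which stand in capitals (GATCTG is CAGATC on the other strand).
met17, chrII:465124-465283 of ASM294v3, plus strand: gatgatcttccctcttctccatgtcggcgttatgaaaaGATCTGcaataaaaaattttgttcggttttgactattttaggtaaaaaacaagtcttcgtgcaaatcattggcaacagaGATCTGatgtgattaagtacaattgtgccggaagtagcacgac
hom2, chrIII:2387564-2387723, minus strand: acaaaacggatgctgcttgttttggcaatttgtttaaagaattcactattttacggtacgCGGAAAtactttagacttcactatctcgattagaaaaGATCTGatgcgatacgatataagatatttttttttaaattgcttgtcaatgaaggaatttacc
leu3, chrII:2690617-2690776, minus strand: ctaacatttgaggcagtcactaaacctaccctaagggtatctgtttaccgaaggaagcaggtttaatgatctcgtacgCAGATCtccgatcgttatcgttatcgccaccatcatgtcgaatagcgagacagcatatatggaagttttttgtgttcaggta
thf1, chrII:627791-627950, plus strand: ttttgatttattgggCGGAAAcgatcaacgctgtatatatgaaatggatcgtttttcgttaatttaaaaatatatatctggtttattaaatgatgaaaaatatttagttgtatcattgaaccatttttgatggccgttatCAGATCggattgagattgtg
adh4, chrI:158027-158186, minus strand: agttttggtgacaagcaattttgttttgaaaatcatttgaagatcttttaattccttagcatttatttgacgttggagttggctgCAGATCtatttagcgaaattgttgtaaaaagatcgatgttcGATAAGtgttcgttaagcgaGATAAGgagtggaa
The *met17* stretch holds 2 matches to CAGATC, *hom2* and *thf1* 1 match to each hexamer, and *adh4* 2 GATA sites beside 1 match to CAGATC. Of the other motifs searched, the CRE core TGACGT was in 6.67% of member windows and 5.95% of all, the forkhead site GTAAACA in 12.4% and 16.7%, the stress element CCCCTC in 3.81% and 1.96%, and the heat shock core GAANNTTC in 14.3% and 11.2%. The MBF site ACGCGT was in 1.9% and 2.82%, the E-box CACGTG in 2.86% and 1.56% and the core of the Ste11 site, TTCTTTGTT, in 0.952% and 1.93%.

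Of a list of 12 genes for biotin, vitamin B6 and pantothenate, 6 were members (50%), compared with 2.38% of all identifiers. This list too was chosen with earlier results of these data known, and its share is a description. Vht1, the plasma membrane importer of biotin, had 43237, 50065 and 46962 counts at 4 h in *igo1*∆ cells, 32507, 31515 and 27935 in *ppk18*∆ *cek1*∆ cells, and 1059, 1181 and 1170 in wild type cells. In MM it had 30278, 30739 and 33962 counts in *igo1*∆ cells and 29466, 31709 and 37643 in wild type cells. The mutants kept or exceeded that level without nitrogen while the wild type samples lost nearly all of it. The biotin synthase gene *bio2* stood at 4.4 and 3.46 times wild type at 4 h.

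SPCC576.17c, annotated as a transporter of vitamin B6, was induced rather than kept, with 2003, 2879 and 3288 counts at 4 h in *igo1*∆ cells, 1931, 2103 and 2095 in *ppk18*∆ *cek1*∆ cells and 83.9, 67.5 and 85.4 in wild type cells. Its MM counts were 126, 151 and 122 in *igo1*∆ cells and 129, 126 and 131 in wild type cells. Sno1 and Snz1, the subunits of the enzyme that makes pyridoxal phosphate from glutamine, differed from each other in course. For *sno1*, *igo1*∆ cells had 1418, 1493 and 1635 counts in MM and 7127, 7863 and 8255 at 4 h. For *snz1* the same cells had 65312, 63256 and 53812 counts in MM and 31287, 29391 and 32384 at 4 h. Both genes lay above wild type at 4 h, at 12.9 and 9.1 times for *sno1* and 4.52 and 3.6 times for *snz1*, and the pantothenate importer gene *liz1* at 4.62 and 3.71 times.

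Genes of mitochondrial carriers and of carbon use numbered 11. They included both subunits of the mitochondrial pyruvate carrier, *mpc1* (5.21 and 3.57 times wild type) and *mpc2* (4.09 and 3.43 times), *odc1*, the carrier of 2-oxoglutarate (6.61 and 5.35 times), and *mmf1*, which encodes a matrix protein of the family that clears reactive imines (5.71 and 4.73 times). The folate enzyme gene *thf1* reached 4.98 and 4.3 times and the glycerol-3-phosphate dehydrogenase gene *gpd2* 5.79 and 4.68 times. The alcohol dehydrogenase gene *adh4*, whose upstream DNA is printed above, had 8151, 7569 and 8106 counts at 4 h in *igo1*∆ cells, 6327, 6098 and 5959 in *ppk18*∆ *cek1*∆ cells and 878, 979 and 1006 in wild type cells. These groups did not overlap, though the rule chose the gene by its mutant and wild type values at this time. Among genes that sense or serve amino acid supply, *gcn3*, the alpha subunit of eIF2B, reached 10.4 and 5.94 times wild type and *ecl2* 8.55 and 7.25 times. The aspartyl-tRNA ligase gene *drs1* reached 3.96 and 3.16 times. It was the only member among 34 tRNA ligase genes (2.94%), compared with 2.38% of all identifiers.

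Among the 28 nitrogen scavenging and permease genes, 3 were members: *gdh1*, the ammonium transporter gene *amt2* (4.76 and 4.15 times wild type) and *cat1*, which encodes an importer of arginine and lysine (4.79 and 3.83 times). The hexose and glycerol list gave 4 of 19 genes, *gpd2*, *adh4* and the hexose transporter genes *ght2* and *ght7*. The sulfur list gave 2 of 10, *met17* and *met26*, the stress list 2 of 19, the MAP kinase phosphatase gene *pyp2* and the sulfiredoxin gene *srx1*, and the iron list 1 of 14, the heme uptake gene *shu1*. The meiosis list gave *meu10* and the septation list *pvg2*, whereas the heat shock, mating and phosphate lists gave no member, and whether these shares differ between lists was not tested. Over all identifiers the share of members was 2.38%.

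Full-length Tf2 retrotransposons had the largest ratios as a group. Of 9 copies with enough counts, 8 were members (88.9%), compared with 2.38% of all identifiers. Their ratios were 19.7 to 75.9 times wild type in *igo1*∆ cells and 9.81 to 31.4 times in *ppk18*∆ *cek1*∆ cells. *Tf2-6* had 4502, 5488 and 6507 counts at 4 h in *igo1*∆ cells, 2494, 2497 and 1805 in *ppk18*∆ *cek1*∆ cells and 66.3, 49.6 and 71.7 in wild type cells. Its MM counts were 66.2, 65.0 and 59.4 in *igo1*∆ cells and 40.7, 63.0 and 135 in wild type cells, so the strains overlapped before starvation. Tf2 copies are nearly identical in sequence, and how reads that match several copies were counted is not given in the sources used here, so the values of single copies are uncertain. The 8 copies are not 8 independent measurements.

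The highest ratio of all belonged to SPCC70.08c, annotated as a methyltransferase. It had 19988, 21804 and 22674 counts at 4 h in *igo1*∆ cells, 13666, 13512 and 9888 in *ppk18*∆ *cek1*∆ cells, and 166, 236 and 230 in wild type cells, which is 97.5 and 56.1 times wild type. In MM it had 1042, 1048 and 1044 counts in *igo1*∆ cells and 870, 871 and 987 in wild type cells. It was above its MM level in the mutants and below it in wild type. At 4 h no mutant sample came near a wild type sample, but the 4 h values chose the gene. *mam301*, one of the 5 most abundant members, had 124739, 126172 and 139014 counts at 4 h in *igo1*∆ cells, 116336, 118283 and 121035 in *ppk18*∆ *cek1*∆ cells and 11610, 11884 and 11620 in wild type cells. At the other end of abundance, the transporter gene SPBC1348.05 had 565, 731 and 759 counts at 4 h in *igo1*∆ cells, 205, 210 and 228 in *ppk18*∆ *cek1*∆ cells and 3.9, 3.26 and 4.84 in wild type cells. Its ratio depends on the 10 counts that the rule adds, as it does for the 4 members whose wild type mean at 4 h was under 10.

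**Figure D3:**
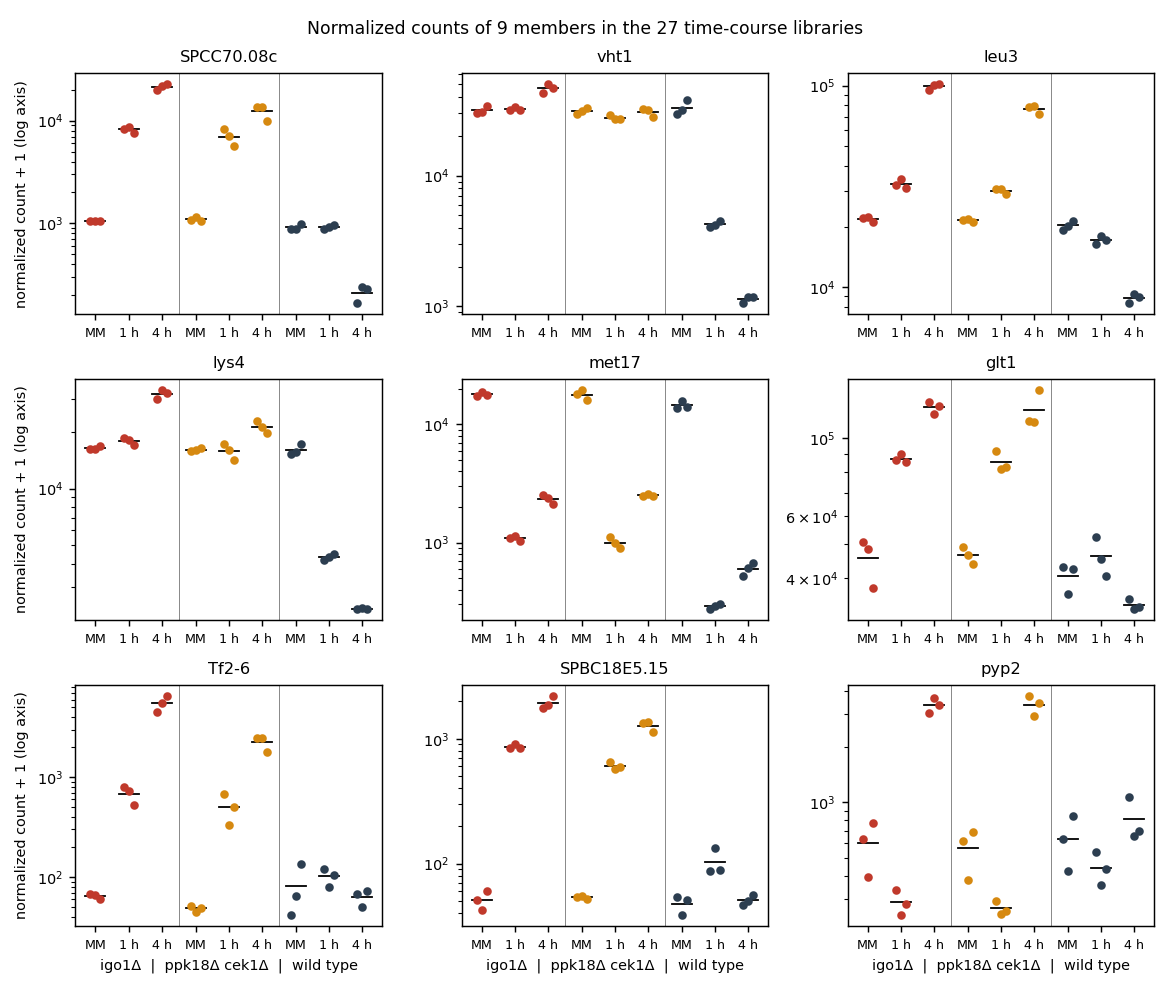
Normalised counts (log axis) of 9 members in the 27 libraries, with 1 point per sample and a bar at the group mean, for *igo1*∆, *ppk18*∆ *cek1*∆ and wild type in MM, 1 h and 4 h. SPCC70.08c, *Tf2-6* and SPBC18E5.15 climb with time in the mutants, *vht1* and *lys4* are kept in the mutants and lost in wild type, *met17* is lost in all strains, and *pyp2* dips at 1 h before its rise at 4 h.

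The comparison after 1 h did not choose the genes, although the wild type samples at 1 h entered the clauses on wild type. Of the 116 members, 96 (82.8%) were higher in *igo1*∆ than in wild type cells after 1 h, compared with 32.6% of the 6036 genes tested, and 8 were lower (6.9%), compared with 29.9% (limma, Benjamini-Hochberg adjusted p below 0.05). In *ppk18*∆ *cek1*∆ cells 93 members (80.2%) were higher, compared with 30.5% of all genes, and 9 were lower (7.76%), compared with 28.7%. The median differences were 0.97 and 0.92 (log2), against 0.03 and 0.02 over all genes. With equal library totals the split of all genes in *ppk18*∆ *cek1*∆ cells was 1431 higher and 2037 lower, against 1839 and 1733 before. All 22 amino acid enzymes, all 6 vitamin genes, all 11 genes of mitochondrial carriers and carbon use and all 8 Tf2 copies were among the higher ones in both mutants. Over the whole list of 68 amino acid enzymes, 57 were higher and 4 lower in *igo1*∆ cells, and 57 were higher and 3 lower in *ppk18*∆ *cek1*∆ cells.

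After 1 h, *vht1* had 31869, 33614 and 31593 counts in *igo1*∆ cells, 28926, 27029 and 27273 in *ppk18*∆ *cek1*∆ cells and 4062, 4208 and 4528 in wild type cells. The log2 differences were 2.92 (SE 0.08, limma adjusted p = 8.88e-18) and 2.70 (SE 0.08, limma adjusted p = 2.19e-17). SPCC70.08c had 8351, 8759 and 7564 counts in *igo1*∆ cells, 8213, 7074 and 5664 in *ppk18*∆ *cek1*∆ cells and 888, 910 and 955 in wild type cells. For SPCC70.08c the differences were 3.16 (SE 0.13, limma adjusted p = 3.57e-15) and 2.91 (SE 0.13, limma adjusted p = 1.71e-14). Neither gene overlapped between a mutant and wild type, so their separation was already present at 1 h. *Tf2-1* had the largest difference in *igo1*∆ cells, 3.70 (SE 0.44, limma adjusted p = 1.36e-07). It had 138, 50.9 and 44.4 counts against 2.67, 6.02 and 4.84 in wild type cells, with 1 *igo1*∆ sample far above the others. These wild type counts of *Tf2-1* lay below the minimum mean required for testing. Its higher mutant counts entered that mean, so its p-value is not independent of the filter. The pseudogene SPBC18E5.15 differed by 3.10 and 2.58 (SE 0.14 for each, limma adjusted p = 3.16e-14 and 9.51e-13).

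A small subset went the other way at 1 h. The rule requires higher mutant values at 4 h, so the turn of these genes by 4 h follows from the choice and is a description. The 8 members lower in *igo1*∆ than in wild type cells at 1 h were SPBC1289.14, SPACUNK4.17, *wwm3*, *tgd1*, *pyp2*, *ght2*, SPBPB21E7.08 and SPBC215.11c, and the same 8 with *arz1* were lower in *ppk18*∆ *cek1*∆ cells. Ght2, a glucose and fructose importer, had 1807, 1572 and 1649 counts at 1 h in *igo1*∆ cells, 1848, 1626 and 1541 in *ppk18*∆ *cek1*∆ cells and 3025, 3148 and 3259 in wild type cells. Its log2 differences were -0.91 (SE 0.08, limma adjusted p = 1.68e-09) and -0.91 (SE 0.08, limma adjusted p = 1.98e-09). At 4 h the mutants were higher, as the rule requires, with 20008, 23222 and 21915 counts in *igo1*∆ cells, 22468, 23143 and 25203 in *ppk18*∆ *cek1*∆ cells and 6036, 5439 and 5611 in wild type cells.

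Pyp2, the phosphatase that inactivates the stress MAP kinase Sty1, had 335, 246 and 283 counts at 1 h in *igo1*∆ cells, 293, 249 and 259 in *ppk18*∆ *cek1*∆ cells and 540, 358 and 434 in wild type cells. No mutant sample reached the wild type samples, and the log2 differences were -0.61 (SE 0.25, limma adjusted p = 0.0379) and -0.72 (SE 0.25, limma adjusted p = 0.0182). At 4 h *pyp2* had 3040, 3642 and 3334 counts in *igo1*∆ cells, 3744, 2934 and 3421 in *ppk18*∆ *cek1*∆ cells and 1072, 660 and 703 in wild type cells. *pyp2* is the neighbour of *Tf2-8* on chromosome I. SPBC1289.14, annotated as an adducin, had 203, 164 and 156 counts at 1 h in *igo1*∆ cells and 363, 531 and 336 in wild type cells (log2 -1.21, SE 0.15, limma adjusted p = 3.69e-07). At 4 h it had 2635, 3474 and 2848 counts in *igo1*∆ cells and 256, 281 and 257 in wild type cells. *wwm3* differed by -1.27 and -1.24 at 1 h (SE 0.37 for each, limma adjusted p = 0.0046 and 0.0058).

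Within each mutant, the change over the first hour was not used by the rule either. In *igo1*∆ cells 71 members (61.2%) were higher after 1 h than in MM, compared with 39.7% of all genes, and 31 (26.7%) were lower, compared with 38.1%. In *ppk18*∆ *cek1*∆ cells 63 members (54.3%) were higher, compared with 39.2%, and 35 (30.2%) were lower, compared with 38.2%. With equal library totals, these counts became 84 and 23 in *igo1*∆ and 78 and 23 in *ppk18*∆ *cek1*∆ cells, and the median of all genes moved to 0.42 and 0.37 (log2), against 0.02 in both strains before. The 8 Tf2 copies were all higher after 1 h in both strains, whereas the amino acid enzymes were split, with 8 higher and 11 lower in *igo1*∆ cells and 7 higher and 13 lower in *ppk18*∆ *cek1*∆ cells.

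The largest rises in *igo1*∆ cells were those of *ght7*, SPBC18E5.15 and SPBC23G7.13c, and in *ppk18*∆ *cek1*∆ cells those of *ght7*, SPBC18E5.15 and *Tf2-6*. SPBC23G7.13c, annotated as a urea transporter, had 18391, 20680 and 19549 counts after 1 h in *igo1*∆ cells, against 1735, 1829 and 1896 in MM, a log2 change of 3.42 (SE 0.10, limma adjusted p = 1.68e-19). The gap between the 2 times was far wider than either group. The largest fall was that of *met17*, whose counts are given above, by 4.04 in *igo1*∆ cells (SE 0.09, limma adjusted p = 1.32e-21) and 4.15 in *ppk18*∆ *cek1*∆ cells (SE 0.09, limma adjusted p = 7.8e-22). *asn1* rose by 0.96 and 0.92 over the same hour (SE 0.05 for each, limma adjusted p = 6.13e-14 and 1.6e-13). *asn1* and *met17*, both genes of amino acid synthesis, thus moved in opposite directions.

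Before starvation the strains were close. In MM 9 members (7.76%) were higher in *igo1*∆ than in wild type cells, compared with 0.961% of all genes, and 3 (2.59%) were lower, compared with 1.19%. In *ppk18*∆ *cek1*∆ cells 5 members (4.31%) were higher, compared with 0.729%, and 2 (1.72%) were lower, compared with 0.944%. The higher ones in both strains were SPBPB10D8.02c, SPAC11D3.02c, SPAC5H10.10, *amf1* and *cat1*, to which *Tf2-1*, *gpd2*, *snz1* and *mug115* were added in *igo1*∆ cells. SPBC1289.14 and SPBC23G7.13c were lower in both, and *pho841* in *igo1*∆ cells. The *igo1*∆ and *ppk18*∆ *cek1*∆ comparisons share their wild type samples.

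SPBPB10D8.02c, annotated as an arylsulfatase, had 2572, 2477 and 2324 counts in MM in *igo1*∆ cells, 2610, 2481 and 1908 in *ppk18*∆ *cek1*∆ cells and 1412, 1683 and 1375 in wild type cells. Every mutant sample was above every wild type sample, with log2 differences of 0.73 (SE 0.10, limma adjusted p = 0.000226) and 0.64 (SE 0.10, limma adjusted p = 0.000983). *cat1* differed by 0.49 in both (SE 0.09, limma adjusted p = 0.0039 and 0.0030). The calls of *Tf2-1* (log2 1.64, limma adjusted p = 0.0498) and *pho841* (log2 -0.30, limma adjusted p = 0.0491) lay at the threshold and were lost under most of the alternatives tried. Leaving out 1 sample also moved the counts: 4 members were higher in *igo1*∆ cells without wild type replicate 1, 5 without wild type replicate 2 and 4 without *igo1*∆ replicate 2, and 1 was lower without *igo1*∆ replicate 2. In *ppk18*∆ *cek1*∆ cells 3 were higher without wild type replicate 2 and 3 without *ppk18*∆ *cek1*∆ replicate 2.

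Overexpression of *ppk18* puts Greatwall in excess in cells that have nitrogen, and these 4 libraries played no part in choosing the genes. Of 112 members tested, 56 (50%) were lower in overexpressing than in wild type cells, compared with 27.8% of the 5863 genes tested, and 19 (17%) were higher, compared with 29.6%. The median log2 difference was -0.28, against 0.00 over all genes. The amino acid enzymes gave 18 of 22 lower, and the remaining 4, *gdh1*, *glt1*, *lys2* and *met26*, did not pass the test. Over the whole list of 68, 45 were lower and 8 higher. Vitamin genes gave 4 of 6 lower and genes of mitochondrial carriers and carbon use 8 of 11 lower and 2 higher, whereas 1 of 8 Tf2 copies was lower.

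*met17* had 5111 and 4552 counts in overexpressing cells, against 12295 and 11620 in wild type cells, a log2 difference of -1.31 (SE 0.07, limma adjusted p = 4.55e-07). *vht1* had 8933 and 8260 counts, against 24705 and 21752 in wild type cells, a difference of -1.43 (SE 0.08, limma adjusted p = 4.98e-07). *leu3* had 10850 and 10150 counts, against 13489 and 13199 in wild type cells, a difference of -0.35 (SE 0.06, limma adjusted p = 0.0009). In each of the 3 genes the groups did not overlap, and the falls differed widely in size. The largest falls were those of SPBC1289.14, with both overexpressing samples far below both wild type samples (-3.59, SE 0.29, limma adjusted p = 6.65e-06), of SPBPB10D8.02c, with 124 and 115 against 986 and 1068 (-3.10, SE 0.10, limma adjusted p = 2.97e-08), and of the transporter gene SPBPB10D8.06c (-2.04, SE 0.13, limma adjusted p = 1.75e-06).

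The 19 members that were higher with overexpression were thus higher than wild type both at 4 h in starved cells without Greatwall and in fed cells with Greatwall in excess. SPBC19C7.04c, an uncharacterised gene, had 4660 and 5390 counts in overexpressing cells, against 411 and 387 in wild type cells (log2 3.65, SE 0.08, limma adjusted p = 2.4e-09). Shu1, a cell surface protein for heme uptake, had 44.6 and 17.9 counts, against 2.71 and 1.18 in wild type cells (3.37, SE 0.57, limma adjusted p = 0.0008). The wild type counts of *shu1* lay below the minimum mean required for testing. It therefore entered the test only through its overexpressing samples, which lay far apart, so its p-value is not independent of the filter. The catechol O-methyltransferase gene *cmt2* rose by 2.14 (SE 0.12, limma adjusted p = 6.73e-07), the phosphate transporter gene *pho841* by 1.25 (SE 0.07, limma adjusted p = 6.85e-07), the vacuolar calcium pump gene *pmc1* by 1.09 (SE 0.05, limma adjusted p = 3.39e-07) and *pyp2* by 0.65 (SE 0.12, limma adjusted p = 0.0014). Most of these genes belong to no amino acid or vitamin pathway, and none of the 22 amino acid enzymes was among the 19.

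**Figure D4:**
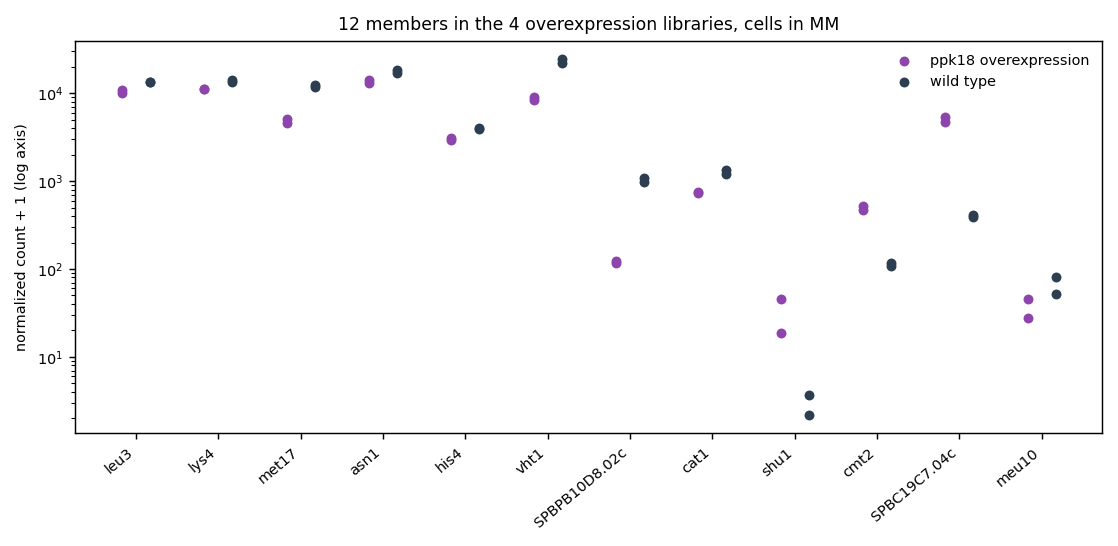
Normalised counts (log axis) of 12 members in 2 samples overexpressing *ppk18* and 2 wild type samples of the same experiment. *leu3*, *lys4*, *met17*, *asn1*, *his4*, *vht1*, *cat1* and SPBPB10D8.02c lie lower in overexpressing cells, *shu1*, *cmt2* and SPBC19C7.04c higher, and *meu10* lower with its samples far apart.

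**Figure D5:**
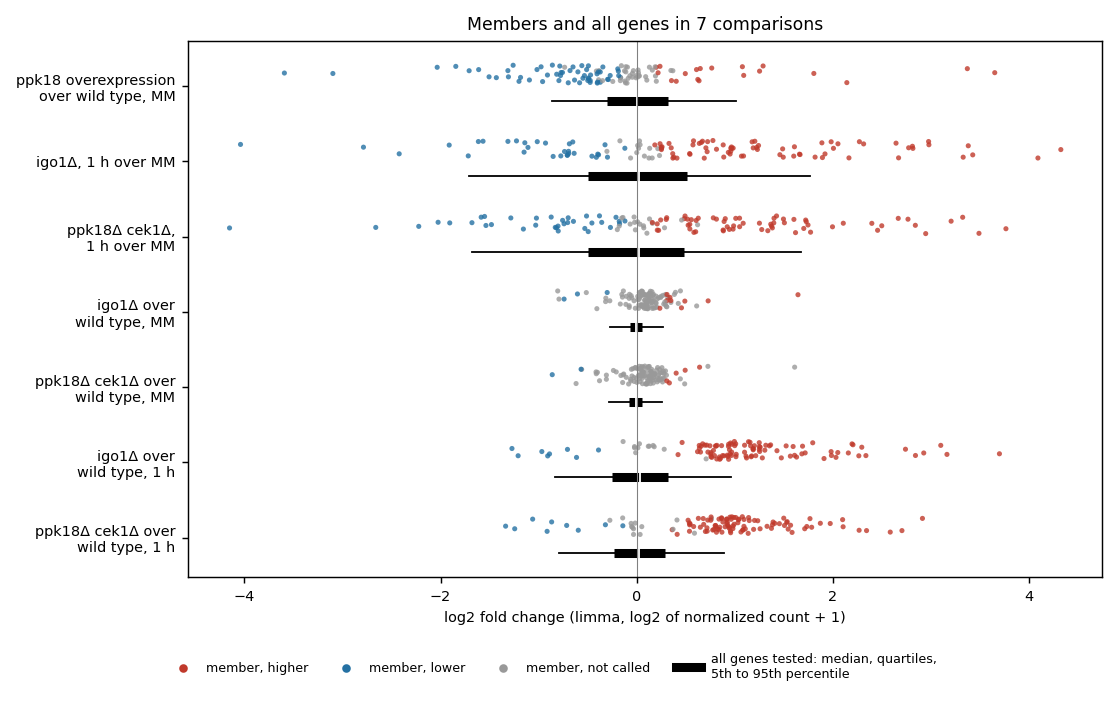
Each point is the log2 difference of 1 member in 1 of 7 comparisons (limma), coloured by its call, with the median, the quartiles and the 5th to 95th percentiles of all genes tested drawn under it. Members lie right of the median of all genes after 1 h in both mutants (medians 0.97 and 0.92) and left of it with *ppk18* overexpression (median -0.28).

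Among the members, the 2 mutants differed in degree at 4 h. The 4 h values of both mutants entered the rule, so the 4 h shares and ratios that follow are a description. In 105 of 116 members (90.5%) the *igo1*∆ value was above that of *ppk18*∆ *cek1*∆ cells, compared with 47.7% of all identifiers, and it was at least 1.5 times as high in 22 members (19%), compared with 0.553%. The median ratio of *igo1*∆ to *ppk18*∆ *cek1*∆ cells was 1.24 over the members and 2.0 over the Tf2 copies, with *Tf2-10* highest at 3.45. It was lowest, at 0.633, for *gsf1*, which had 4334, 4222 and 5740 counts in *igo1*∆ cells and 5219, 4092 and 13291 in *ppk18*∆ *cek1*∆ cells, where 1 sample stood far above the others. At 1 h, where the difference could be tested, 1 member was higher in *igo1*∆ than in *ppk18*∆ *cek1*∆ cells (0.862%, compared with 0.116% of all genes) and 0 were lower, compared with 0.149% (limma, adjusted p below 0.05). At an unadjusted p below 0.05, 29 were higher and 0 lower. The share of all genes at that threshold is not given here, so this count is not read as a trait of the members. On whole reads edgeR called 3 members higher, where it called 13 of all 6036 genes higher and 15 lower. DESeq2 called 10 members higher, where it called 27 of all genes higher and 28 lower. Neither tool called a member lower. The called member was SPBC1271.08c, an uncharacterised gene, with 4280, 4019 and 3630 counts in *igo1*∆ cells and 3348, 2692 and 2749 in *ppk18*∆ *cek1*∆ cells (log2 0.44, SE 0.10, limma adjusted p = 0.0488). Its call was lost without *igo1*∆ replicate 1 or 2 and without *ppk18*∆ *cek1*∆ replicate 2 or 3, whereas without *ppk18*∆ *cek1*∆ replicate 1 the count of higher members was 4.

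The members lay on all chromosomes, 49 on I, 45 on II and 19 on III of the 113 with a position. They included 9 pairs of next neighbours, among them *Tf2-7* and *Tf2-8*, *Tf2-8* and *pyp2*, *pvg2* and *Tf2-6*, SPBC1271.08c and SPBC1271.07c, and *tbc1* and *odc1*. Within 100 kb of a chromosome end lay 11 members (9.73%), compared with 2.28% of 4859 identifiers with a position, where both counts lack the SPAC977 and SPAC212 identifiers that the rule leaves out. These were SPCC70.08c, SPBC1348.05, *cmt2*, *shu1*, SPBPB10D8.02c, SPBPB10D8.06c, SPBPB10D8.07c, *hom2*, *ght7*, *tgd1* and *cat1*. An annotated gene overlaps 99 of the 113 on the opposite strand. Neither this share nor the number of neighbour pairs was computed for all identifiers, so neither is read as a trait of the set. The libraries kept strand, but the strand setting of the counting is not given in the sources used here, so reads of an antisense partner may be part of a member's count.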

How the data were processed

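RNA of 31 libraries was sequenced after ribosomal RNA removal with a stranded Illumina kit. Per the submitters' processing notes the authors checked reads with FastQC 0.11.8, trimmed them with Trimmomatic 0.38, aligned them with HISAT2 2.1.0 to ASM294v2 and counted them per gene with featureCounts (Subread 1.6.3). The deposited values are a normalised signal, read counts that the authors scaled by DESeq2 size factors, separately for the starvation experiment (27 libraries) and the overexpression experiment (4 libraries). They were whole multiples of 1 read (within 0.01) for 100% of values. The table holds 7001 identifiers, of which 6852 matched the annotation.

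The unit called for a test on the log scale. limma 3.58.1 (R 4.3.3) with a mean-dependent trend was fitted to log2(normalised count + 1) of genes with a mean of at least 10, over all 9 groups of the starvation experiment together and over the overexpression experiment on its own, with Benjamini-Hochberg adjustment over all genes and a threshold of 0.05. Log2 differences are on that scale and understate changes of low genes. The fit was tested on simulated data. edgeR 4.0.16 and DESeq2 1.42.0 on the recovered whole reads, other pseudocounts, filters and scalings, a replicate block and leaving out each sample were tried as alternatives. The comparison of both mutants at 1 h was added after the data were seen.

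The members and the gene lists were chosen with earlier results of these data known, and the groups by function were set after the members were known. Genes named in the text were the 12 with the largest mean 4 h ratio, 3 on each side of the threshold, the 3 largest rises and falls among called members in each comparison, the 5 with the highest mean, members of a gene list, the deleted or overexpressed genes and the lowest and highest *igo1*∆ to *ppk18*∆ *cek1*∆ ratio. One gene and one motif that were examined are not reported here. Other named genes were chosen after their values were seen, to fill out a pathway or show its sequences.

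Replicates differed by more than sampling noise (chi-square per gene 8.75 to 84.6 in 29 pairs). Same-numbered samples were taken to deviate together where every pair's correlation was above 0.1. This held with 0.264, 0.17 and 0.193 for *igo1*∆ and wild type at 1 h and with 0.401, 0.428 and 0.141 for *igo1*∆ and *ppk18*∆ *cek1*∆ cells at 1 h, and in no other comparison, although for *ppk18*∆ *cek1*∆ and wild type cells at 1 h all 3 were positive (0.311, 0.305 and 0.0589). In the comparisons above 0.1 the numbers were therefore read as pairing the samples, from the data and not from the labels. The main tests did not use this pairing, which entered only the alternative with a replicate block.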

Additional observations from a re-analysis of the deposited data

How the results depend on the processing

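The counts of members called stayed within 1.5 times under the pseudocounts, filters, scalings and tools tried, apart from the following. Scaling every library to the same total gave 23 members lower after 1 h in *ppk18*∆ *cek1*∆ cells, where the count was 35. Fitting only the groups compared gave 0 higher and 1 lower in *ppk18*∆ *cek1*∆ against wild type cells in MM, where the counts were 5 and 2, from fewer samples to estimate the spread. A minimum fold of 4 in place of 3 left 67 of the 116 genes. Under quantile normalisation the rule gave 113 genes, 107 of them shared, and with equal totals 98, of which 97 were shared. The comparison of both mutants at 1 h was the least stable: the count of higher members, 1, became 2 with a pseudocount of 10, 0 without the filter on low counts, 0 with equal totals, 0 without the trend, 3 with edgeR, 10 with DESeq2 and 4 with only the groups compared. The cause was not tested for any of these except where stated.

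Leaving out 1 sample at a time gave 14 to 19 members higher and 50 to 56 lower with overexpression, 68 to 70 and 30 to 31 in *igo1*∆ and 58 to 64 and 32 to 34 in *ppk18*∆ *cek1*∆ cells after 1 h against MM, and 93 to 96 and 7 to 8 in *igo1*∆ and 92 to 95 and 7 to 9 in *ppk18*∆ *cek1*∆ cells against wild type at 1 h. In MM against wild type it gave 4 to 7 higher and 1 to 4 lower in *igo1*∆ cells and 3 to 7 higher and 2 lower in *ppk18*∆ *cek1*∆ cells. Between both mutants at 1 h it gave 0 to 4 higher, and the rule found 114 to 118 genes.

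With the replicate block, 96 members were higher and 8 lower in *igo1*∆ against wild type cells at 1 h, 94 and 9 in *ppk18*∆ *cek1*∆ cells, 8 and 4 and 5 and 2 in MM, 72 and 32 and 64 and 35 after 1 h against MM, 1 and 0 between the mutants at 1 h, and 19 and 55 with overexpression. With the pairs of the overexpression experiment crossed (same-number correlation -0.14), an alternative chosen after seeing the data, 19 were higher and 57 lower. The block moved no count by over 1.5 times. On whole reads, edgeR called 1743 genes higher and 2107 lower of 6036 in *igo1*∆ against wild type cells at 1 h, 94 and 8 of them members. In MM it called 42 and 39 genes, where limma called 58 and 72, and with only the groups compared limma called 24 and 35 there and 12 and 12 in *ppk18*∆ *cek1*∆ cells, where the counts were 44 and 57. Between both mutants at 1 h, edgeR called 13 and 15 genes and DESeq2 27 and 28, against 7 and 9 with limma. With equal totals, limma called 1431 genes higher and 2037 lower in *ppk18*∆ *cek1*∆ against wild type cells at 1 h, against 1839 and 1733, and after 1 h against MM 3656 and 1324 in *igo1*∆ cells, against 2399 and 2300, and 3555 and 1370 in *ppk18*∆ *cek1*∆ cells, against 2369 and 2308.

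With 3 samples per group in the starvation experiment and 2 in the other, precision is limited for low members such as *Tf2-1* and SPBC1348.05, and the 4 h ratios of the 4 members with a wild type mean under 10 depend on the counts that the rule adds.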

Other observations

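The transcription factor gene *fil1*, which is not a member, was higher in both mutants than in wild type cells after 1 h, and also higher with *ppk18* overexpression. It had 40117, 33423 and 32351 normalised counts after 1 h in *igo1*∆ cells, 35082, 28783 and 34279 in *ppk18*∆ *cek1*∆ cells and 26631, 22890 and 21349 in wild type cells, with log2 differences of 0.58 (SE 0.12, limma adjusted p = 0.000161) and 0.47 (SE 0.12, limma adjusted p = 0.0014). At 4 h it had 57178, 49561 and 53314 counts in *igo1*∆ cells, 58710, 50929 and 75341 in *ppk18*∆ *cek1*∆ cells and 40898, 39545 and 39964 in wild type cells, so it was above its MM level of 19568, 17340 and 16933 in wild type cells too. With *ppk18* overexpression it had 36077 and 35286 counts, against 23628 and 23041 in wild type cells (log2 0.61, SE 0.07, limma adjusted p = 4.48e-05), where 18 of the 22 amino acid members were lower. The gene was chosen after its values were seen.

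Among the 34 genes for tRNA ligases, which serve the same amino acids, 18 were higher in *igo1*∆ than in wild type cells at 1 h, compared with 32.6% of all genes, and 7 lower, compared with 29.9%. In *ppk18*∆ *cek1*∆ cells 19 were higher, compared with 30.5% of all genes, and 7 lower, compared with 28.7%. With *ppk18* overexpression 3 were higher, compared with 29.6% of all genes, and 19 lower, compared with 27.8%.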
